A study of Homo sapiens with 14 samples.

Results

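miR-125b-5p, miR-99a-5p and miR-100-5p are mature microRNAs (miRNAs) that come from paired clusters on chromosomes 11 and 21. They were taken by name from the deposited count table, as 3 of the 2632 miRNAs it lists. Small RNA was sequenced from extracellular vesicles (EVs), which are small membrane-bound particles shed by cells. The 14 libraries came from medium conditioned by pro-epicardial or epicardial cells. Epicardial cells form the outer layer of the heart, and here all the cells came from hES-2, a single human embryonic stem cell line. Every group started from frozen pro-epicardial cells without GFP, grown in the same supplemented StemPro medium, and the groups differed in what was added.

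NT libraries (n = 3) came from cells with no SB-431542 and no other additive. SB libraries (n = 4) came from cells matured for 8 days in 6 µM SB-431542, an inhibitor of type I TGF-β receptors. TGFb libraries (n = 4) came from cells that received TGF-β1 at 5 ng/ml during the first 4 days and no additive during the next 4. FGF libraries (n = 3) came from cells given 10 ng/ml bFGF for 8 days. The sample titles call the NT cells untreated pro-epicardial and the SB cells mature epicardial. They call the TGFb and FGF cells stimulated epicardial. Each comparison with NT therefore also sets a pro-epicardial label against an epicardial one. From day 4 the medium had passed a 100 kDa filter to deplete background EVs, and each of the 2 collections, on days 6 and 8, closed a 48 h conditioning period. Precipitation with polyethylene glycol also brings down material other than vesicles, and the proportion was not measured in these files. The labels do not say whether replicates came from separate cultures, so p-values measure the spread between these samples, which may be technical.

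A miRNA guides Argonaute proteins to messenger RNAs that pair with its seed, bases 2 to 8 from the 5′ end. miR-125b is a vertebrate relative of worm lin-4, known for targets such as LIN28 and for roles in cell fate and stress responses, while miR-99a and miR-100 belong to the old miR-99/100 family and are known to repress MTOR. In vertebrates these families sit with let-7 in conserved clusters, and in other human cells TGF-β is known to raise the chromosome 11 cluster.

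The sequences show which arms share a seed, and so which counts belong to 1 family. The members and their paralogs from the chromosome 19 cluster are printed 5′ to 3′ from RefSeq (GRCh38.p14), with the seed in capitals.
miR-125b-5p: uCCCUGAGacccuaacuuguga
miR-125a-5p: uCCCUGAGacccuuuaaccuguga
miR-99a-5p: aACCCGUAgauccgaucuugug
miR-100-5p: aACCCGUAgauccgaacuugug
miR-99b-5p: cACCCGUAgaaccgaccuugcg
All 3 members matched an entry. miR-125b-5p and miR-125a-5p share the seed CCCUGAG and their first 13 bases. miR-99a-5p and miR-100-5p differ at 1 base, U16A (miR-99a base, position from the 5′ end, miR-100 base). Against miR-99b-5p, miR-99a-5p differs at 4 positions, A1C, U11A, U16C and U21C. With a single base between miR-99a-5p and miR-100-5p, a sequencing error or a loose match could move a read from one to the other, and how the authors assigned such reads is not given in the sources used here.

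miR-125b-5p is made from 2 genes with the same mature sequence, so its count cannot be divided between them. On GRCh38, MIR125B1 lies at chromosome 11, 122099757 to 122099844, minus strand, and MIR100 lies at 122152229 to 122152308 on the same strand. Both are in introns of the long noncoding RNA gene MIR100HG, with 52384 bases between the hairpins and let-7a-2 between them. MIR99A lies at chromosome 21, 16539089 to 16539169, plus strand, and MIR125B2 lies at 16590237 to 16590325. Both are in introns of MIR99AHG, with 51067 bases between them, and let-7c starts 658 bases after MIR99A ends. The chromosome 19 cluster is tighter: MIR99B and MIR125A are 572 bases apart in an intron of SPACA6.

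Only the 3′ arms tell the MIR125B1 and MIR125B2 hairpins apart, and they are printed for that reason, seed in capitals.
miR-125b-1-3p: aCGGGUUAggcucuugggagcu
miR-125b-2-3p: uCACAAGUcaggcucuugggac
miR-125b-1-3p, from chromosome 11, had 5 counts in all: 1 in SB 4, 1 in TGFb 1 and 3 in TGFb 4. miR-125b-2-3p, from chromosome 21, had 4 counts in all: 2 in NT 3 and 2 in TGFb 4. Counts of both hairpins were therefore present, and TGFb 4 held both, but the numbers are too small to compare the loci or the groups. miR-99a-3p had 1 count, in SB 3, and miR-100-3p had 0, which allows up to 3 counts.

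The libraries were shallow. Total counts ran from 115 (FGF 2) to 14862 (NT 1), 47091 in all, and 10 of the 14 libraries held at least 500. A single count is worth 0.870% of the counts in FGF 2 and 0.00673% in NT 1. A total of 447 miRNAs had a count, and 47 had enough for the test across miRNAs. The table holds miRNAs only, so messenger RNA markers of epicardium were not analysed here. Of 8 miRNAs of pluripotent cells, 2 had any count (miR-302a-3p with 2 and miR-372-3p with 3), and the other 6 were at 0.

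Of the members, miR-125b-5p was the one with appreciable signal. It had 844 counts, was found in all 14 libraries, and ranked 9th by summed counts, between rank 6 and rank 52 in single libraries. Its mean was 1.98% ± 1.31 of a library's counts (SD, n = 14). miR-100-5p had 23 counts in 8 libraries (rank 112) and miR-99a-5p had 9 counts in 5 libraries (rank 165). Over the summed counts there were 93.8 counts of miR-125b-5p per count of miR-99a-5p (95% exact interval 49.2 to 206) and 36.7 per count of miR-100-5p (24.3 to 58.2). Intervals in this text cover counting error only.

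Within libraries the order of levels was the same throughout for the leading member. miR-125b-5p exceeded miR-99a-5p in 14 of 14 libraries, by 1.93 ± 1.35 percentage points (SD), and the exact sign-flip permutation test gave an adjusted p of 0.000183 over 3 pairs. It exceeded miR-100-5p in 14 of 14 libraries, by 1.92 ± 1.34 points, with the same adjusted p by the exact permutation test. miR-99a-5p and miR-100-5p were not distinguished: their mean difference was -0.01 ± 0.19 points, with miR-99a-5p higher in 3 libraries, equal in 4 and lower in 7 (exact permutation p = 0.881). Leaving out SB 2, where 1 count of miR-99a-5p is 0.559% of the library, moved this difference to -0.05 points with an adjusted p of 0.0391 by the same exact permutation test. Ligation and amplification differ between miRNA sequences, so ratios between members describe counts in these libraries, not molecules.

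**Figure D1:**
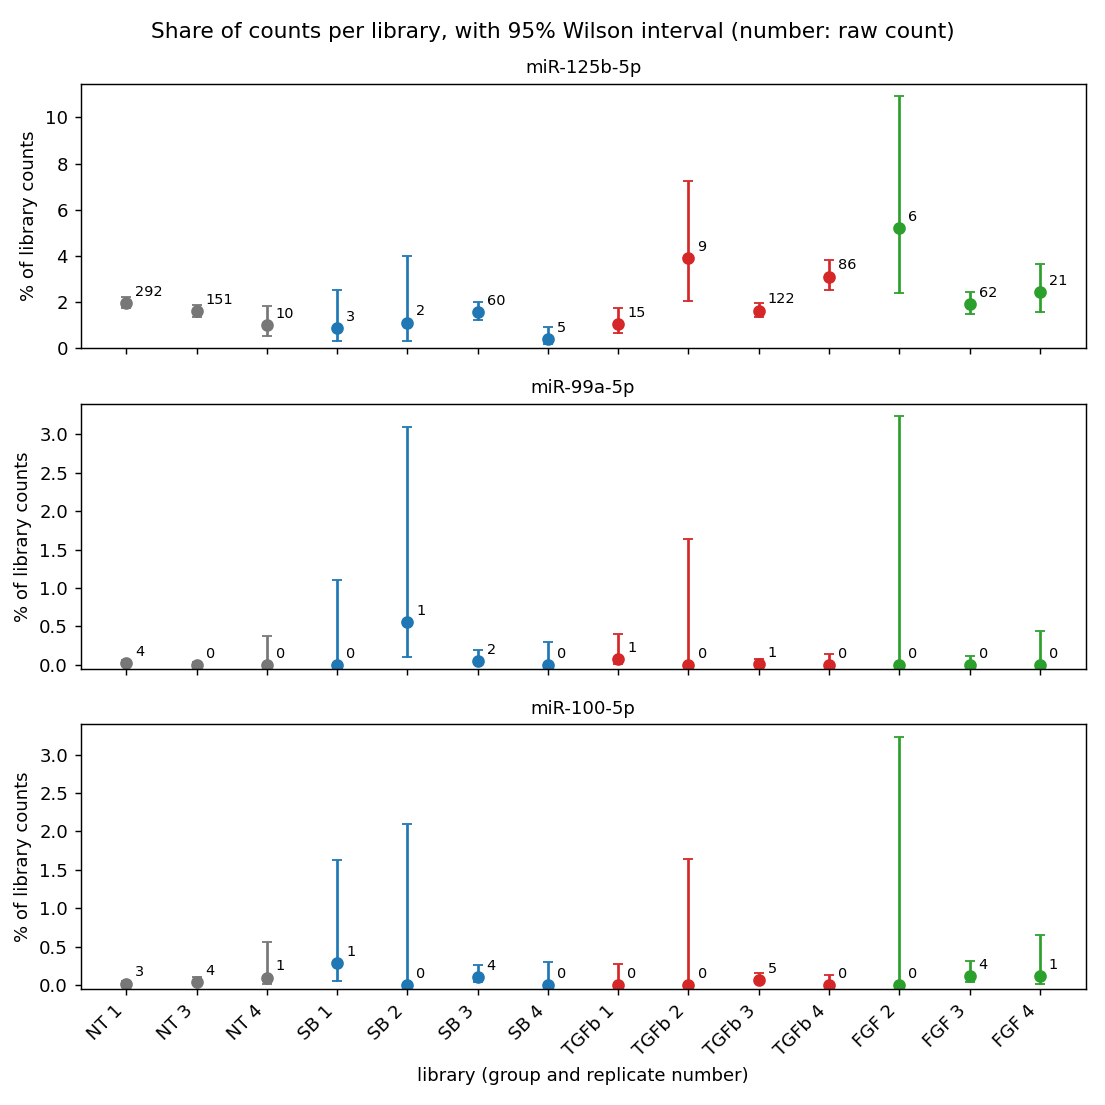
Percent of library counts (y axis) of miR-125b-5p, miR-99a-5p and miR-100-5p in each of 14 libraries (x axis, by group and replicate number), with 95% Wilson intervals as bars and the raw count beside each point. miR-125b-5p is above 0 in every library, and the other members are at 0 to 5 counts each.

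miR-125b-5p made up 1.97% of counts in NT 1, 1.60% in NT 3 and 0.990% in NT 4. In the SB libraries it was 0.870%, 1.12%, 1.57% and 0.389% for replicates 1 to 4. The NT and SB ranges overlapped, and the lowest value of all was in SB 4, from 5 counts. TGFb libraries 1 to 4 had 1.06%, 3.90%, 1.63% and 3.11%. FGF 2, 3 and 4 had 5.22%, 1.91% and 2.42%. The highest value, in FGF 2, came from 6 of 115 counts (95% Wilson interval 2.41% to 10.9%).

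Ordered by group mean, miR-125b-5p was highest in FGF (3.18% ± 1.78, SD, n = 3), then TGFb (2.42% ± 1.31, n = 4), NT (1.52% ± 0.492, n = 3) and SB (0.986% ± 0.492, n = 4). The summed counts gave the same order, 2.11%, 1.95%, 1.79% and 1.24%. Neighbours in this order overlapped in every case. The 3 FGF libraries all lay above the 4 SB libraries, and 8.51% of the 47 tested miRNAs showed such a separation in that direction. In bulk material like this, fewer vesicles from a cell type and less miRNA per vesicle cannot be told apart.

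No member passed the edgeR quasi-likelihood test in any of the 6 comparisons between groups, with p-values adjusted by Benjamini-Hochberg over 47 miRNAs. The test over the 4 groups at once gave miR-125b-5p an edgeR adjusted p of 0.483, and it too called 0% of miRNAs. Of the 3 members, 1 (miR-125b-5p) passed the filter on low counts and entered that test. Its lowest p was in TGFb over SB, a log2 fold change of 1.42 (SE 0.61), edgeR adjusted p = 0.333 and unadjusted p = 0.0283. FGF over SB was 1.24 (SE 0.66), with an edgeR adjusted p of 0.704 and an unadjusted p of 0.0722. The share of all tested miRNAs called was 0% in these 2 comparisons, in TGFb over NT and in TGFb over FGF, and 2.13% in SB over NT and in FGF over NT. At an unadjusted p under 0.05, miR-125b-5p counted in TGFb over SB, where 8.51% of all tested miRNAs did, and in none of the other 5. Those 5 had 12.8% (SB over NT), 4.26% (TGFb over NT), 17% (FGF over NT), 6.38% (FGF over SB) and 14.9% (TGFb over FGF) of miRNAs at that level. DESeq2, and limma on the authors' adjusted table, did not call miR-125b-5p either.

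Set against NT, miR-125b-5p was at -0.88 in SB (SE 0.64, edgeR adjusted p = 0.456), 0.54 in TGFb (SE 0.62, 0.935) and 0.36 in FGF (SE 0.68, 0.805), all as log2 fold changes. These 3 comparisons share the NT libraries. TGFb over FGF was 0.18 (SE 0.64) with an edgeR adjusted p of 0.970, and its sign turned under other scalings: it was -0.08 with RLE factors and -0.36 with library size alone. Leaving out libraries under 500 counts turned the sign of TGFb over NT, to -0.10, and of FGF over NT, to -0.51. FGF over NT was -0.12 without FGF 2, the library with the highest share, -0.19 without FGF 3 and -0.17 without FGF 4. It also turned without NT 3 (-0.20), SB 1 (-0.25) or SB 2 (-0.13), so the turn was not particular to FGF 2. A miss of the threshold does not show that the groups had equal levels, since the standard errors here span 0.61 to 0.68 on the log2 scale.

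**Figure D2:**
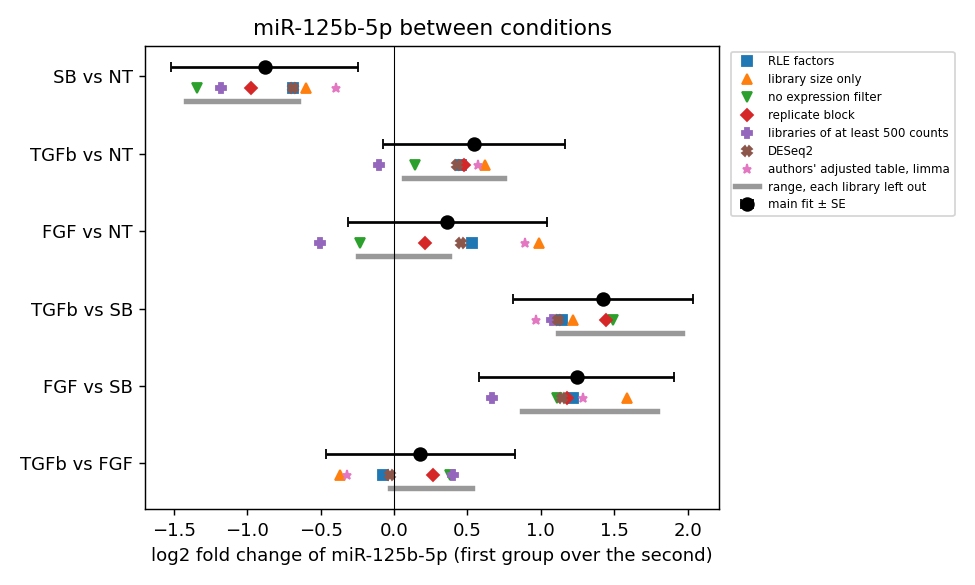
Log2 fold change of miR-125b-5p (x axis) in each of 6 group comparisons (y axis), with the edgeR estimate and its SE in black, 7 other settings as coloured symbols and the range over libraries left out in grey. SB over NT stays below 0 and both comparisons over SB stay above 0, while TGFb over NT, FGF over NT and TGFb over FGF fall on both sides.

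miR-100-5p had 3, 4 and 1 counts in NT 1, 3 and 4. In SB it had 1 in replicate 1, 4 in replicate 3 and 0 in replicates 2 and 4. TGFb 3 had 5 and the other TGFb libraries had 0, while FGF 3 had 4, FGF 4 had 1 and FGF 2 had 0. No group stood apart, and in the 6 libraries at 0 a count of 0 allows a share of up to 0.108% to 2.61%.

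miR-99a-5p was found in NT 1 (4 counts), SB 2 (1), SB 3 (2), TGFb 1 (1) and TGFb 3 (1). The 9 libraries without a count allow up to 0.0317% to 2.61%. All 3 FGF libraries were among them, but FGF 3, the deepest of the 3, still allows 0.0926%, so a difference from the other groups was not detectable at this depth. With no filter on low counts, edgeR gave miR-99a-5p adjusted p-values of 0.711 to 1 and miR-100-5p of 0.866 to 1.

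Sharing a seed, miR-125b-5p and miR-125a-5p could be set against each other within each library, which removes the library total and its scaling. miR-125b-5p was the minor form of this seed, with 844 of 6059 counts (13.9%), and miR-4319, which RefSeq also lists with the seed, had 0. Among libraries with at least 5 counts in the pair, the part of miR-125b-5p was highest in the FGF libraries. In NT 1, 3 and 4, miR-125b-5p was 10.0%, 13.4% and 14.9% of the pair. In SB 1, 3 and 4 it was 23.1%, 25.0% and 8.33%, and in TGFb 1 to 4 it was 15.8%, 28.1%, 14.1% and 23.5%. In FGF 2, 3 and 4 it was 46.2%, 29.4% and 40.4%.

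All 3 FGF values were above the 10 values used from the other groups. SB 2, at 50.0%, lay above all 3 FGF values. It was left out because it rests on 2 of 4 counts, under the minimum of 5. The means were 38.6% ± 8.52 in FGF (SD, n = 3), 20.4% ± 6.57 in TGFb (n = 4), 18.8% ± 9.12 in SB (n = 3) and 12.8% ± 2.51 in NT (n = 3). From counts summed over each group the percentages were 32.3%, 17.1%, 22.1% and 11.0%, with SB 2 included, so SB then stood above TGFb. Without SB 2 the summed SB value was 21.7%. FGF minus SB was 19.8 points over library means and 10.2 points over summed counts with SB 2.

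Pair by pair, none of the 12 comparisons of seed-family balance (6 for miR-125 and 6 for miR-99/100) passed after adjustment, but none could have. With these group sizes the lowest adjusted p the exact permutation tests can give over the 12 is 0.0571, so they say nothing for or against a difference. TGFb minus FGF was -18.3 points, with a two-sided exact permutation p of 0.0286, the smallest this design allows, and 0.343 after adjustment. FGF minus NT was 25.9 points with an exact permutation p of 0.1, again the smallest possible. A test over the 4 groups at once, added after the values were seen, gave 71.2% of the variance between groups, with an exact permutation p of 0.00832 and an adjusted p of 0.0166 over 2 such tests. The other, on the miR-99/100 balance, gave 44.1% of the variance and an exact permutation p of 0.114. That share was unstable, at 12.7% to 56.2% over 3 other settings and 32.1% to 73.7% with 1 library left out. Its exact permutation p ran from 0.0281 to 0.866, with 1 alternative past 0.05. The miR-125 result was no longer past 0.05 when permuted within replicate number (exact p = 0.0732), in the authors' adjusted table (exact p = 0.0767) or in libraries of at least 500 counts (exact p = 0.0622).

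**Figure D3:**
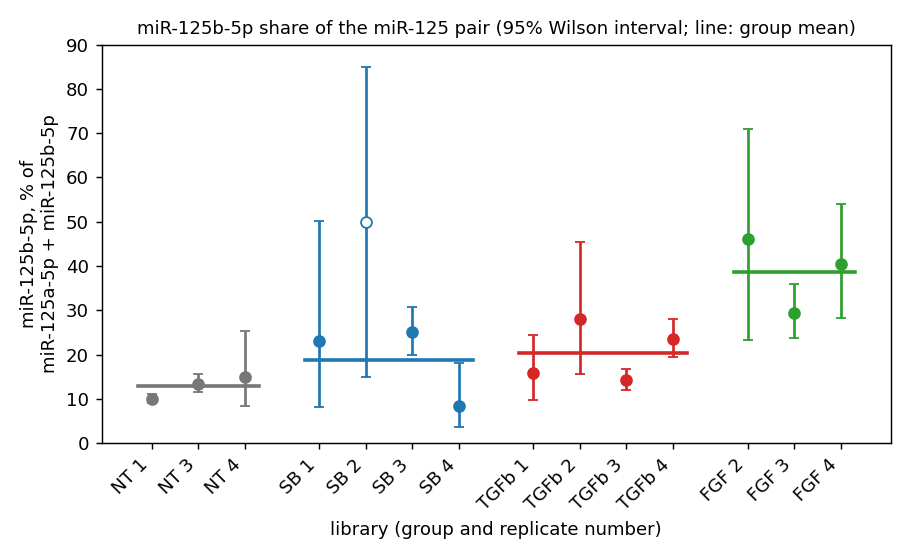
miR-125b-5p as a percent of miR-125a-5p plus miR-125b-5p (y axis) in each library (x axis), with 95% Wilson intervals as bars and group means as lines. The FGF libraries sit at 29.4% to 46.2%, and the open circle is SB 2, with 4 counts in the pair, which enters no mean or test.

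The levels of the 2 terms of that ratio can be read apart. miR-125a-5p was 3.57% to 6.09% of counts in FGF and 5.64% to 17.7% in NT, with an edgeR log2 fold change of -1.83 for FGF over NT (SE 0.58, adjusted p = 0.0946). Over the same groups miR-125b-5p was at 1.91% to 5.22% in FGF and 0.990% to 1.97% in NT. In SB over NT, miR-125a-5p had a log2 fold change of -1.98 (SE 0.53, edgeR adjusted p = 0.0396), a call that most other settings did not keep, and miR-125b-5p was at -0.88. In TGFb over FGF the larger change was in miR-125a-5p, 1.46 (SE 0.55, edgeR adjusted p = 0.278), with miR-125b-5p at 0.18 (SE 0.64). In FGF over SB it was in miR-125b-5p, 1.24 (SE 0.66), with miR-125a-5p at 0.15 (SE 0.54). Which of the 2 terms moved the FGF balance was not tested.

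A marker list of mesenchymal and mural cells was also highest in all 3 FGF libraries. Its 5 miRNAs, all with counts, summed to 2.07% to 6.96% of counts in FGF, against 0% to 0.891% in NT, 0.131% to 1.68% in SB and 0.0705% to 1.30% in TGFb. Over all libraries together, nearly all of the list's counts were miR-143-3p (161 counts) and miR-199a-3p (46), with miR-145-5p at 4, miR-214-3p at 2 and miR-199a-5p at 1. These counts are not split by group here. By summed counts, 2 other lists were also highest in FGF, though their libraries overlapped between groups. The 2 endothelial miRNAs had 35 of 4224 counts in FGF, 14 of 25334 in NT, 18 of 5636 in SB and 18 of 11897 in TGFb. The 7 epithelial miRNAs were 0.923% in FGF, 0.142% in NT, 0.550% in SB and 0.454% in TGFb. The remaining lists were highest in SB by summed counts. Serum and red cells were 0.337% in SB and 0.237% in FGF, and neural cells 0.568% and 0.497%. Cardiac and skeletal muscle were 0.160% and 0.0710%, and pluripotent cells 0.0177% and 0%. The part of these cell types in the miR-125b-5p balance was not tested.

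For the ACCCGUA seed the paralog on chromosome 19 held nearly everything. miR-99b-5p had 1772 of the family's 1804 counts (98.2%), miR-100-5p had 1.28% and miR-99a-5p 0.499%. miR-99a-5p and miR-100-5p together were 0.976%, 1.18% and 7.14% of the family in NT 1, 3 and 4. In SB they were 20.0%, 20.0%, 6.67% and 0%, the first 2 of these from 1 of 5 counts each. TGFb 1 to 4 had 2.22%, 0%, 1.75% and 0%, and FGF 3 and 4 had 3.39% and 2.86%. The group means, 11.7% ± 10.0 in SB (SD, n = 4), 3.12% ± 0.377 in FGF (n = 2), 3.10% ± 3.50 in NT (n = 3) and 0.994% ± 1.16 in TGFb (n = 4), overlapped in spread for SB, NT and TGFb. Both FGF libraries lay above all 4 TGFb libraries, with an adjusted exact permutation p of 0.343. FGF 2, with 2 counts in the family, was left out.

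In counts, the 2 kinds of cluster also differed in how far the miR-99/100 arms lagged the miR-125 arm. The arms differ in sequence, so such ratios again describe counts in these libraries, not molecules. miR-99a-5p and miR-100-5p were 3.72% ± 3.43 of the 3 members' counts (SD, n = 12 libraries). In the chromosome 19 cluster, miR-99b-5p was 29.4% ± 10.2 of miR-99b-5p plus miR-125a-5p in the same libraries. The members' value was lower in 12 of 12 libraries (difference -25.7 ± 9.64 points), a description chosen after the values were seen. SB 1 and SB 2, with 4 and 3 counts of the members, were left out; there the values were 25.0% against 28.6% and 33.3% against 66.7%.

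**Figure D4:**
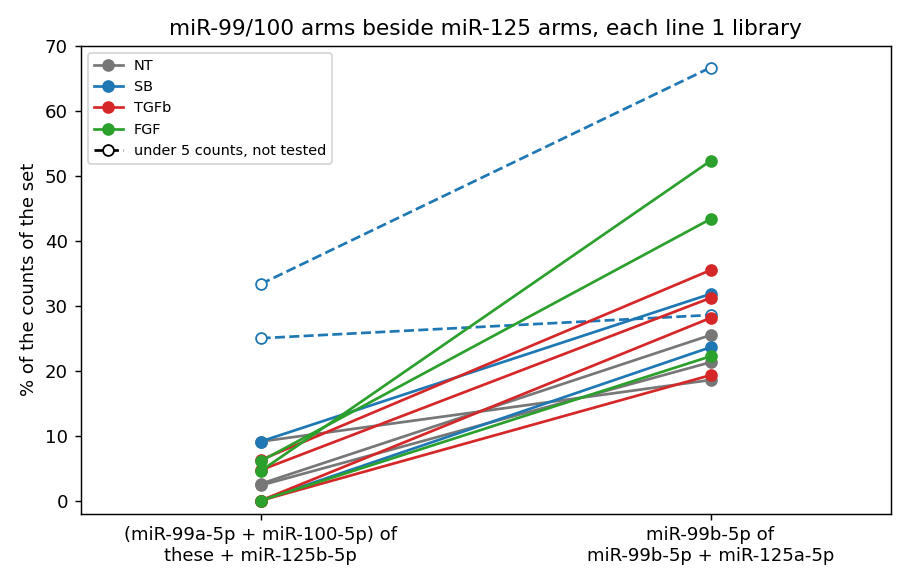
Percent of counts (y axis) for miR-99a-5p plus miR-100-5p among the 3 members (left) and for miR-99b-5p among miR-99b-5p plus miR-125a-5p (right), 1 line per library coloured by group. All 12 solid lines rise from 0% to 9.09% on the left to 18.6% to 52.3% on the right; dashed lines are SB 1 and SB 2, with under 5 counts.

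Among the let-7 miRNAs of these clusters, let-7c-5p could be set against the arm beside it. let-7c-5p, whose hairpin follows MIR99A, had 73 counts in 13 libraries, 8.11 per count of miR-99a-5p (95% exact interval 4.05 to 18.4). It differs from let-7a-5p at 1 base, G19A (let-7c base first, position from the 5′ end), so the same doubt on assignment holds. let-7a-5p had 224 counts, but its sequence is also made from genes on chromosomes 9 and 22, so they cannot be credited to the MIR100HG copy. let-7e-5p of the chromosome 19 cluster had 1323 counts, fewer than miR-99b-5p. In the related miR-10 family, miR-10a-5p had 349 counts and miR-10b-5p had 4.

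Of the 6 relatives that could be tested (let-7a-5p, let-7c-5p, let-7e-5p, miR-10a-5p, miR-99b-5p and miR-125a-5p), 1 passed in SB over NT, miR-125a-5p. Its call was lost in 5 of 7 other settings and in 8 of 14 fits without 1 library, with adjusted p-values up to 0.643, while its log2 fold change stayed between -2.74 and -1.09. None passed in the other 5 comparisons by edgeR without a block. In TGFb over SB, the log2 fold change of miR-125b-5p (1.42) stood beside those of miR-99b-5p (1.28), let-7e-5p (1.59) and miR-125a-5p (1.61), with edgeR adjusted p-values of 0.333, 0.258, 0.0898 and 0.0898. In the fit with replicate number as a block, miR-125a-5p and let-7e-5p passed in that comparison (edgeR adjusted p = 0.0212 each) and miR-125b-5p did not (0.190). The share of all tested miRNAs that passed in the block fit is not given here, so these calls cannot be read as particular to the cluster.

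Across the 14 libraries, miR-125b-5p was most like miR-99b-5p (Spearman's rho 0.55 on log2 counts scaled to the library total), then miR-103a-3p (0.52) and miR-125a-5p (0.51), out of 46 tested miRNAs with a median of -0.01. The libraries share a wide range of depth, so these are descriptions. For miR-99a-5p the nearest were miR-30d-5p (0.74) and the 2 arms of miR-483 (0.52 for the 3p and 0.45 for the 5p arm), and for miR-100-5p they were miR-191-5p (0.52), miR-1290 (0.51) and miR-16-5p (0.49). With 9 and 6 libraries at 0, these last orders rest on few counts.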

How the data were processed

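The authors deposited whole-number counts per miRNA with no normalization, which were the main values here. A second table deposited by the authors holds adjusted whole numbers, treated as a score because they are no longer raw counts (1084 of 2001 nonzero values were altered) and how they were made is not given in the sources used here. Per the labels' protocols, vesicles were precipitated with the miRCURY kit, miRNeasy Micro served for RNA and the QIAseq miRNA kit for libraries. Per the submitters' processing notes the build was GRCh38. The aligner is not given in the sources used here, nor is whether reads or molecular identifiers were counted. The 18 columns of CPM per library and group means were not used. Neither were 2 lines of the adjusted table that name no miRNA.

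Counts were fitted with edgeR 4.0.16 (R 4.3.3; TMM, filterByExpr minimum count 10, robust glmQLFit over all 14 libraries), with Benjamini-Hochberg adjustment over 47 miRNAs and a threshold of 0.05. Standard errors were derived from the fold change and its F statistic. Balances within a library needed at least 5 counts and were compared by two-sided exact permutation tests (Python 3.11.15, SciPy 1.17.1). Wilson intervals (95%) are given for shares of single libraries, and 3 counts are taken as the limit of a 0. Alternatives were RLE factors, library size alone, DESeq2 1.42.0, no filter, a replicate block, limma 3.58.1 on log2 CPM of the adjusted table, libraries of at least 500 counts, summed counts, and each library left out. The fitting script was tested on simulated data. All 18 replicate pairs differed beyond sampling noise by a resampled chi-square test (largest p = 5e-04, the smallest it can give), so none were merged. Hairpin positions come from GENCODE release 29 and sequences from RefSeq.

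The text names the members, their cluster mates, paralogs, miR-10 relatives and other arms, and the 3 most similar miRNAs of each member. The members, lists and tests were chosen with earlier results of these data known.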

Additional observations from a re-analysis of the deposited data

Results flagged for a closer look

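In groups of 4 libraries, 2 of 9 sets of values had 1 library far from the other 3. The 0.45 sets that chance gives under this rule assume continuous values. Both flagged sets rest on a few counts and zeros, so an excess over chance cannot be read from them. miR-99a-5p was 0.559% of counts in SB 2, with a gap of 0.906 of the group's range to the next library. That value is 1 of 179 counts (95% Wilson interval 0.0987% to 3.10%). miR-100-5p was 0.0669% of counts in TGFb 3, from 5 of 7478 counts, while the other 3 TGFb libraries had 0.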

How the results depend on the processing

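miR-125b-5p passed in none of the 6 comparisons under the 7 other settings or the 14 fits without 1 library; miR-99a-5p and miR-100-5p were tested only with no filter, and did not pass. miR-125b-5p kept its sign throughout in SB over NT (-1.42 to -0.39), TGFb over SB (0.97 to 1.96) and FGF over SB (0.67 to 1.79). It turned in TGFb over NT with libraries of at least 500 counts (-0.10). FGF over NT turned without a filter (-0.23), with at least 500 counts (-0.51), and ran from -0.25 to 0.38 with 1 library left out. TGFb over FGF turned with RLE factors (-0.0765), library size (-0.36), DESeq2 (-0.0241) and the adjusted table (-0.32), and ran from -0.0252 to 0.53 with 1 library left out. The cause was not tested.

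Same-numbered libraries deviated together with a mean correlation of 0.298 over 18 pairs (0.0178 to 0.615, 15 above 0.1), and 11 of 14 libraries correlated best with their own number. This hints at a shared replicate effect, which the labels do not describe. Depth was partly tied to the number. Replicate 2 libraries held 115 to 231 counts and replicate 3 libraries 3241 to 9462, while replicate 1 ran from 345 to 14862. The part of depth in these correlations was not tested. The block was kept as an alternative because the labels state no pairing. If the numbers do mark a shared effect, the p-values without the block do not account for it. With the replicate block, miR-125b-5p was 1.45 in TGFb over SB, it did not pass, and the 4-group share of variance for the miR-125 balance was 62.3% (exact permutation p = 0.0732). It was 48.4% in the adjusted table and 70.8% with at least 500 counts, none past 0.05, and 62.0% to 78.7% with 1 library left out, all past 0.05. TGFb minus SB in the miR-125 balance turned to -5.28 points in the adjusted table and -0.996 with the block, and ran from -3.65 to 4.68 with 1 library left out. FGF minus NT in the miR-99/100 balance was -1.04 with the block and -1.04 to 2.04 with 1 library left out. miR-99a-5p minus miR-100-5p was 0.00259 points in the adjusted table and -0.0537 to 0.0116 with 1 library left out.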
